A study of Mus musculus with 6 samples.

Results

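Retinal nuclei of mice given an AAV2/2 vector for Wif1 were compared between 4 weeks AVI (library WIF1-4w) and 2 weeks AVI (library WIF1-2w), where AVI is an abbreviation that the labels leave unexplained. The nuclei are the barcodes of this pair of libraries with at least 500 unique molecular identifiers (UMIs, each 1 counted RNA molecule) and at most 10% mitochondrial UMIs. They number 9905 at 2 weeks and 9637 at 4 weeks. Together these are 19542 of the 23862 barcodes deposited for the pair, and 19542 of the 27225 barcodes that pass the same limits in the series, where 32418 were deposited. The 10x multiome assay reads nuclear RNA and open chromatin (ATAC) of the same nucleus.

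All mice were C57BL/6J, and their ages are not given in the sources used here. Wif1 vectors of 2 kinds are named in the design, both driven by the broadly active CMV promoter, one with Wif1-HA and an IRES-GFP reporter and the other with Wif1-HA alone. Which of them these eyes received is not stated. The control library came from naïve wild-type retina, so injection, vector and WIF1 cannot be told apart in any value set beside it, and no library from eyes given the GFP control vector was analysed here. The design gives 2 eyes per group, without saying whether they were pooled. Replicates are lacking, at 1 library per group, so the sizes below have no test, and the 95% intervals cover counting error only. The question was which differences from the control seen at 2 weeks were also there at 4 weeks, and which were seen at 4 weeks alone.

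WIF1 is secreted and holds Wnt ligands away from their receptors. Interferons switch on their target genes through transcription factors that bind the interferon-stimulated response element (ISRE), Stat2 and Irf9 among them, or gamma-activated sites (GAS). These targets include those for MHC class I, the complex that shows peptides to cytotoxic T cells and whose light chain is B2m, and MHC class II, which macrophages and other presenting cells carry. In the retina, microglia are the resident macrophages, and Müller glia span all layers and turn reactive after injury, with higher Gfap, Lcn2 and Serpina3n. Stressed photoreceptors are known to express Edn2, and Fgf2 is a survival factor of the injured retina.

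The promoters below are shown because open chromatin over them is compared later. Each is the 250 bases before the gene start in RefSeq (GRCm38.p6), written 5′ to 3′ on the gene's strand. Capitals mark the ISRE letters GAAANNGAAA or the GAS letters TTCNNNGAA, looked for on both strands.

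B2m and the interferon-induced GTPase genes Irgm1 and Igtp hold ISRE letters, Irgm1 with 2 overlapping matches. Stat2 holds them on the other strand, and Irf1, an interferon-induced transcription factor, holds the GAS letters.
B2m, forward strand, chr2:122147437-122147686: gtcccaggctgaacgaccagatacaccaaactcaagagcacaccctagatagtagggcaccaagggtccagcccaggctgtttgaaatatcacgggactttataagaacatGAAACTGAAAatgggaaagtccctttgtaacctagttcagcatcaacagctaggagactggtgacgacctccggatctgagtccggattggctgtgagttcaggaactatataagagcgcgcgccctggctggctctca
Irgm1, reverse strand, chr11:48871421-48871670: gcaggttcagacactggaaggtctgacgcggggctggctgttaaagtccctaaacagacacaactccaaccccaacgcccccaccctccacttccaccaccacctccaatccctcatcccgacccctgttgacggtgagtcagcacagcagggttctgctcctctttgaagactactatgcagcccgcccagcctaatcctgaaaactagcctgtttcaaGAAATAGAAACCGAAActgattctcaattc
Igtp, forward strand, chr11:58199306-58199555: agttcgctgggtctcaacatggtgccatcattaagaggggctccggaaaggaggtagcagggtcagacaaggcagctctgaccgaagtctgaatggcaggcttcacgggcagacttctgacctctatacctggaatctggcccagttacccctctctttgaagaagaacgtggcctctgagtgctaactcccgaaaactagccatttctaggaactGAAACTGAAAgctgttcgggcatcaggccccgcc
Stat2, forward strand, chr10:128270248-128270497: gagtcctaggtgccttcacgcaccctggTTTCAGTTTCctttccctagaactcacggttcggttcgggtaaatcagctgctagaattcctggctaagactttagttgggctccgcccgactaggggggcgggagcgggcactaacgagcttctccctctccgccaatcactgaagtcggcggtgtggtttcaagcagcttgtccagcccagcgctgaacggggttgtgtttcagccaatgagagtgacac
Irf1, forward strand, chr11:53769764-53770013: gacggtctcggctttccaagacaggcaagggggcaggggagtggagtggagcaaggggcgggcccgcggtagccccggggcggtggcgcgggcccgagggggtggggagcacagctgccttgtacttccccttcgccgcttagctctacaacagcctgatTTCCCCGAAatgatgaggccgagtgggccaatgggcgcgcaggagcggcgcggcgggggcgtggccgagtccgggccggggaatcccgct

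ISRE letters were present in 821 of 27025 promoters of this length (3.04%) and GAS letters in 1940 (7.18%). Of the 41 interferon-induced list genes with a sequence, 18 held ISRE letters and 12 held GAS letters. Of the 9 MHC class I genes with one, B2m, H2-T22 and H2-T23 held ISRE letters. A match is a description of the letters and says nothing of binding.

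Kept nuclei had a median of 838 UMIs at 2 weeks, 1256 at 4 weeks and 1779 in the control, and 6500, 5679 and 3338 ATAC counts. The limit of 500 UMIs removed 3400 barcodes at 2 weeks, 294 at 4 weeks and 0 in the control, so the libraries differ in depth and in how many shallow barcodes were left out. After called doublets were left out, 9063 and 8831 nuclei remained at 2 and 4 weeks and 7172 in the control. The WIF1 libraries shared 207 barcode sequences (144 among kept nuclei), and leaving these out moved none of the recomputed results. Classes were clusters of all 3 libraries together, named from marker genes and therefore written as rod-like, Müller-like and so on. Groups left unnamed included a cluster led by Igkc, Jchain and photoreceptor genes (control 142, 2 weeks 434 and 4 weeks 117 nuclei). Mostly called doublets were a sub-cluster with Müller markers (41, 18 and 24 nuclei) and cluster 30 with bipolar markers (21, 13 and 29). Sub-cluster 21.1 had Müller and astrocyte markers, with Lcn2 and Gfap among its leading genes (1, 19 and 11 nuclei). It was also left unnamed and is not in the Müller-like values below.

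Wif1 RNA (ENSMUSG00000020218) was scarce: all nuclei together held 1 UMI in the control library, 13 at 2 weeks and 37 at 4 weeks. Scaled to 1000000 UMIs of all nuclei (counts per 1000000, CPM; within a class, of that class), these are 0.0578, 1.1 and 2.24, and the 4-week value was 2.01 times the 2-week value (1.04 to 4.11). Müller-like nuclei held 2 Wif1 UMIs at 2 weeks and 7 at 4 weeks, and bipolar-like nuclei held 6 and 19. Vector RNA that lacks the gene's own 3′ end may be missed by these counts. In bipolar-like nuclei the promoter of the endogenous Wif1 gene held 21.3, 32.6 and 19.2 ATAC CPM in the control, 2-week and 4-week libraries, a ratio of 4 to 2 weeks of 0.589.

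The study names TCF4 as a regulator of Wnt signalling, and that name is used both for the product of Tcf4 and for that of Tcf7l2, so both genes are given. Tcf4 differed little between the weeks, at 642, 627 and 613 CPM in the control, 2-week and 4-week libraries (ratio 0.979, 0.95 to 1.01). Tcf7l2, which encodes a partner of beta-catenin, stood at 17, 37.6 and 31.7 CPM over all nuclei (0.841, 0.740 to 0.957). Within Müller-like nuclei Tcf7l2 stood at 438, 388 and 408 CPM. Müller-like nuclei were a larger share of the WIF1 libraries than of the control, as described next.

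**Figure D1:**
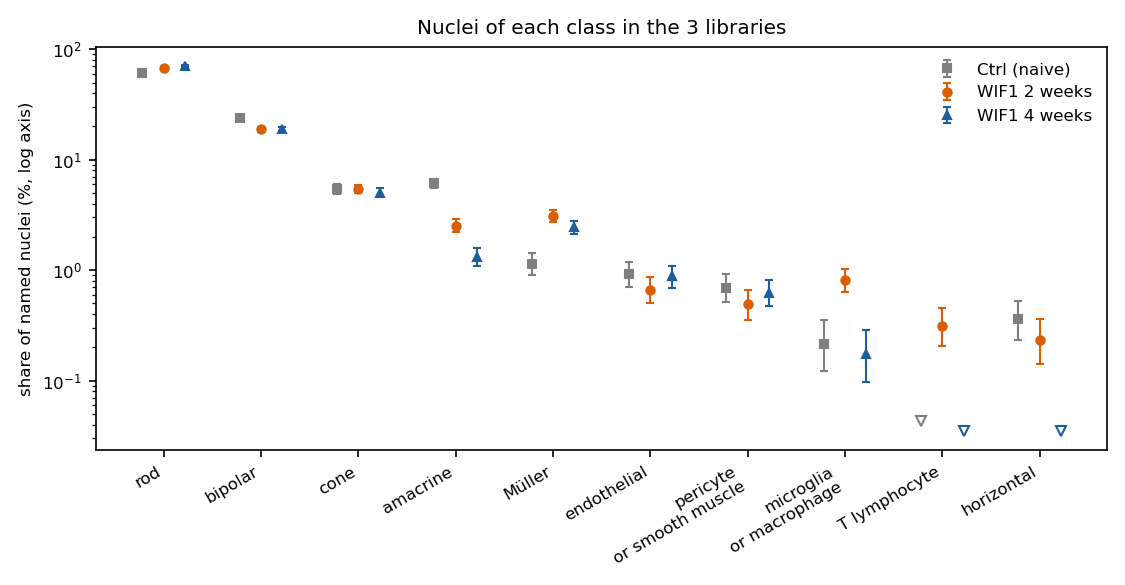
Nuclei of each class as a percent of named nuclei (log axis) in the control, 2-week and 4-week libraries, with exact 95% intervals for counting error. Open triangles mark the share that 3 nuclei would give where 0 were found. Microglia- or macrophage-like nuclei peak at 2 weeks with 0.817%, and amacrine-like nuclei go from 6.15% through 2.53% to 1.32%.

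Immune nuclei were scarcer at 4 weeks. Microglia- or macrophage-like nuclei were 15 nuclei of the control, 70 at 2 weeks and 15 at 4 weeks. Their share of named nuclei was 0.216%, 0.817% and 0.174%, so the 4-week share was 0.212 times the 2-week share (0.113 to 0.375). A sub-cluster led by Cd74 and other MHC class II genes held 31 of the 70 at 2 weeks, 0 at 4 weeks and 1 in the control. T lymphocyte-like nuclei numbered 27 at 2 weeks and 0 at 4 weeks, where 0 of 8641 named nuclei still leaves room for a share of 0.0347%.

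Amacrine-like nuclei, which belong to inner retinal interneurons that mostly release GABA or glycine, were also fewer: the control had 427, the 2-week library 217 and the 4-week library 114. The 4-week share was 0.521 times that at 2 weeks (0.412 to 0.656). Horizontal-like nuclei numbered 25, 20 and 0, and retinal ganglion-like nuclei numbered 8, 0 and 1. Müller-like nuclei numbered 79, 265 and 211, which are 1.14%, 3.09% and 2.44% of named nuclei, and their ratio of 4 to 2 weeks was 0.790 (0.656 to 0.95). These ratios depended on how nuclei were named: with each nucleus named by its highest marker score the ratios of 4 to 2 weeks were 0.869 for amacrine, 0.963 for Müller and 0.578 for microglial nuclei.

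The larger neuron classes had like shares at both weeks. Bipolar-like nuclei numbered 1613 and 1631 (ratio 1.0, 0.935 to 1.07), cone-like nuclei 464 and 436 (0.932, 0.816 to 1.06) and rod-like nuclei 5793 and 6103 (1.04, 1.01 to 1.08). Of the vascular classes, 57 and 76 nuclei were endothelial-like and 42 and 54 were like pericytes or smooth muscle. A limit of 1000 UMIs in place of 500 gave ratios of 2.52 for rod-like and 0.609 for bipolar-like nuclei, so shares of shallow and deep classes move with the depth limit. Every rod cluster held nuclei of both libraries, in different proportions: clusters 1, 2 and 3 held 1269, 1143 and 1601 nuclei at 2 weeks and 325, 466 and 477 at 4 weeks, and clusters 0, 4 and 7 held 348, 240 and 413 at 2 weeks and 1198, 1092 and 744 at 4 weeks.

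RNA of antigen-presenting and antibody-secreting cells, abundant at 2 weeks, was near or under the control level at 4 weeks. Over all nuclei Cd74, the MHC class II invariant chain, gave 23 UMIs (control), 2358 UMIs (2 weeks) and 2 UMIs (4 weeks), a ratio of 4 to 2 weeks of 0.000598 (7.23e-05 to 0.00216). The class II chain H2-Eb1 gave 14, 818 and 2 UMIs, and H2-Aa gave 6, 646 and 2. Of 10 measured MHC class II genes, 10 were lower at 4 weeks and 9 at least 2-fold, with a median log2 ratio of -3.55, where a library under 3 UMIs is set to 3. Over all 18863 genes measured by the same rule, at least 10 UMIs over the pair, 9.26% were at least 2-fold lower, 2.63% at least 2-fold higher, and the median log2 ratio was -0.13. The class II list had a median log2 ratio to the control of 3.70 at 2 weeks and -0.40 at 4 weeks.

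Immunoglobulin RNA showed the same order of libraries. Igkc, the kappa light chain, gave 4, 8793 and 0 UMIs, so that with 3 UMIs taken as the limit the 4-week level was at least 4160-fold lower. Ighg2c, a heavy chain, gave 1, 2059 and 0 UMIs, and Ighm, the IgM heavy chain, gave 1, 1232 and 4, of which a single nucleus held 54.9% of the 2-week UMIs. All 9 measured immunoglobulin genes were at least 2-fold lower at 4 weeks. Igkc also reached nuclei of other classes at 2 weeks. Bipolar-like nuclei held 396 CPM, with 48.0% of the UMIs in 1 nucleus. Rod-like nuclei held 213, cone-like 150, amacrine-like 82.3, Müller-like 58.7 and endothelial-like 54.0 CPM. These classes held 0 Igkc UMIs at 4 weeks. Immune RNA was thus counted at 2 weeks in classes that should not make it, and its part in the levels of other immune genes there was not tested.

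Complement genes, whose products tag debris and cells for removal, followed. The C1q chain genes, made by microglia, stood at 10.3, 78.0 and 12.2 CPM for C1qa in the control, 2-week and 4-week libraries (ratio of 4 to 2 weeks 0.156, 0.133 to 0.182). C1qb stood at 7.69, 57.1 and 10.1 CPM. C3, the central complement protein, gave 13, 130 and 14 UMIs. Of 17 measured complement genes 15 were lower at 4 weeks, 12 of them at least 2-fold, with a median log2 ratio of -1.91. Of 10 homeostatic microglial genes 10 were lower, 6 at least 2-fold, beside the smaller number of microglia-like nuclei. In such sums over all nuclei fewer cells of a type and less RNA per cell cannot be told apart.

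**Figure D2:**
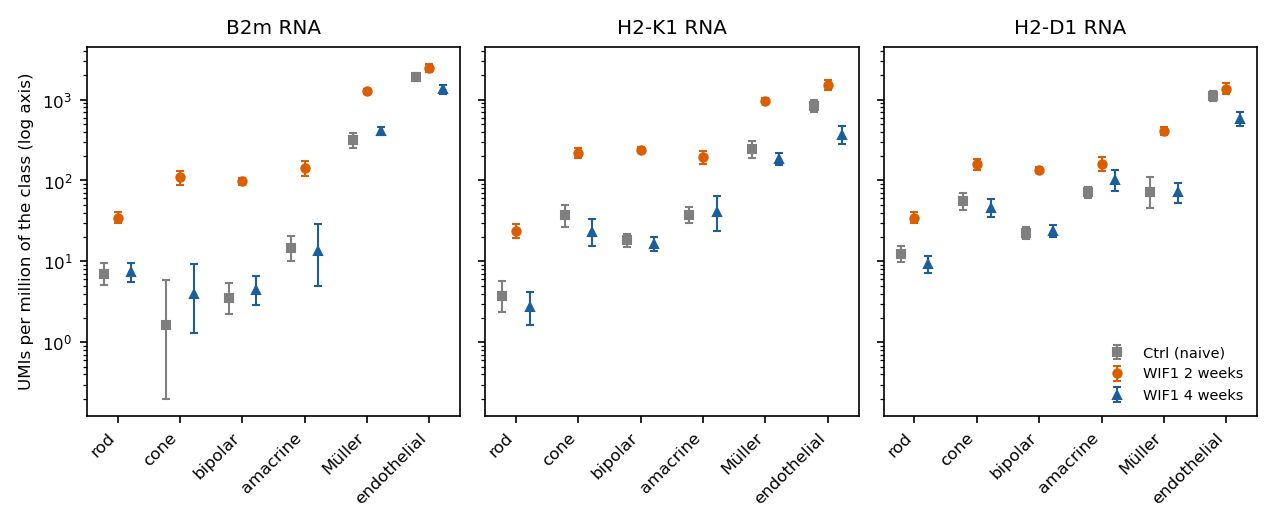
RNA of B2m, H2-K1 and H2-D1 by class in the control, 2-week and 4-week libraries, in CPM of the class total (log axis) with 95% counting intervals. B2m in bipolar-like nuclei stands at 3.55, 97.4 and 4.48 CPM, and at 312, 1266 and 407 CPM in Müller-like nuclei.

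MHC class I RNA was high at 2 weeks in neurons and glia and close to the control at 4 weeks. In bipolar-like nuclei, which relay signals from photoreceptors, B2m (ENSMUSG00000060802) stood at 3.55, 97.4 and 4.48 CPM in the control, 2-week and 4-week libraries. The ratio of 4 to 2 weeks was 0.0460 (0.0294 to 0.0689). The heavy chain H2-K1 stood at 18.4, 241 and 16.5 CPM (0.0683, 0.0545 to 0.0846) and H2-D1 at 22.4, 135 and 23.8 CPM (0.177, 0.145 to 0.214). H2-Q6 gave 0, 97 and 2 UMIs and H2-Q7 gave 7, 166 and 2. H2 heavy chain genes are close copies of each other, so the split of reads among them is uncertain, while B2m has no such copy.

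Of 9 measured MHC class I genes in bipolar-like nuclei 8 were lower at 4 weeks and 7 at least 2-fold, with a median log2 ratio of -3.51. The background there was 5.28% of 14829 genes at least 2-fold lower, 3.22% at least 2-fold higher, and a median of -0.03. How far a gene had returned is given as the share of its 2-week excess over the control that was left at 4 weeks, for genes at least 2-fold over the control at 2 weeks with at least 30 UMIs. The median over the 6 MHC class I genes that met this limit was 1.1%. Genes entered this share by a high 2-week value, which by itself favours a lower 4-week value, so the share is descriptive only. None of the 9 genes was at least 2-fold over the control at 4 weeks, against 6 at 2 weeks, where 254 and 753 of all 14829 genes were.

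Cone-like and Müller-like nuclei gave the same picture at their own levels. In cone-like nuclei B2m stood at 1.64, 109 and 3.99 CPM (ratio of 4 to 2 weeks 0.0366, 0.0116 to 0.0883), and 6 of 7 class I genes were at least 2-fold lower, where 5.76% of 11100 genes were and 3.83% were at least 2-fold higher. The noncoding RNA gene Snhg9 was among the lowest ratios in this class, at 18.1, 119 and 27.2 CPM (0.229, 0.151 to 0.339), where 1.59% of 6909 genes with at least 30 UMIs were at least 2-fold lower and 1.52% at least 2-fold higher. In Müller-like nuclei, which carry more of this RNA in the control too, B2m stood at 312, 1266 and 407 CPM (0.321, 0.281 to 0.367) and H2-K1 at 242, 972 and 185 CPM (0.191, 0.158 to 0.229). There 8 of 9 class I genes were at least 2-fold lower (background 6.76% of 11338 genes, with 5.96% at least 2-fold higher), with a median log2 ratio of -2.39 and 4.84% of the excess left over 6 genes.

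In amacrine-like nuclei B2m stood at 14.6, 142 and 13.5 CPM, and 4 of 6 class I genes were at least 2-fold lower (background 8.41% of 10361 genes, with 4.94% at least 2-fold higher). In endothelial-like nuclei H2-K1 stood at 837, 1520 and 366 CPM (0.241, 0.178 to 0.323). There 7 of 10 class I genes were at least 2-fold lower (background 9.3% of 6132 genes, with 12% at least 2-fold higher). At 2 weeks 3 of the 10 were at least 2-fold over the control, where 709 of the 6132 genes were. At 4 weeks 8 of the 10 were under the control and 2 at least 2-fold, where 2649 and 270 of the 6132 were.

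Rod-like nuclei carried little of this RNA at any time. B2m stood at 7.02, 34.8 and 7.31 CPM and H2-K1 at 3.77, 23.8 and 2.71 CPM, and of 8 class I genes 7 were lower and 4 at least 2-fold (background 7.58% of 14566 genes, with 3.17% at least 2-fold higher). At 2 weeks rod-like nuclei held 1.29 H2-K1 UMIs for each Cd74 UMI, close to the 1.30 of all nuclei, while bipolar-like nuclei held 13.7, cone-like 51.5 and Müller-like 9.88. Per Igkc UMI the H2-K1 UMIs were 0.112 in rod-like and 0.348 in all nuclei, 0.610 in bipolar-like, 1.47 in cone-like and 16.6 in Müller-like nuclei. A single nucleus held 48.0% of the bipolar-like Igkc UMIs. The part of stray immune RNA in the H2-K1 level of each class was not tested.

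In bipolar-like nuclei genes of peptide loading and interferon response were also mostly lower at 4 weeks. Of 13 genes of peptide processing and loading in bipolar-like nuclei 10 were lower, 4 at least 2-fold, with a median log2 ratio of -0.77. The immunoproteasome subunit genes Psmb8 and Psmb9 gave 5, 34 and 3 UMIs (ratio of 4 to 2 weeks 0.0611, 0.0120 to 0.194) and 8, 34 and 2 UMIs (0.0408, 0.00474 to 0.159). Nlrc5, the transcriptional activator of MHC class I genes, stood at 1.24, 8.27 and 2.33 CPM in the control, 2-week and 4-week libraries (ratio of 4 to 2 weeks 0.282, 0.136 to 0.551). The GTPase gene Igtp stood at 3.4, 11.6 and 2.69 CPM (0.231, 0.120 to 0.422).

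Over the interferon-induced list, 30 of 33 measured genes in bipolar-like nuclei were lower at 4 weeks, 19 at least 2-fold, with a median log2 ratio of -1.27. At 2 weeks 20 of the 33 were at least 2-fold over the control and at 4 weeks 1 was, beside 753 and 254 of all 14829 genes. The median excess left in bipolar-like nuclei was 25.4% over 5 genes (range -37.5% to 52.2%). In rod-like nuclei 20 of 25 were lower, 12 at least 2-fold (median -0.96, against -0.10 over all rod genes measured). Cone-like nuclei had 8 of 11 lower and 3 higher, but 1 at least 2-fold lower. Their median log2 ratio to the control was alike at both weeks, 0.38 at 2 and 0.39 at 4 weeks. Over all nuclei 53 of 54 were lower, 27 at least 2-fold, and 41 and 6 of the 54 were at least 2-fold over the control at 2 and 4 weeks, beside 1976 and 620 of all 18863 genes.

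In Müller-like nuclei the return differed from gene to gene. Nlrc5 stood at 29.9, 92.5 and 8.06 CPM (ratio of 4 to 2 weeks 0.0871, 0.0308 to 0.200) and Irf1 at 16.6, 107 and 29.5 CPM (0.276, 0.163 to 0.449). Nlrc5 was under the control at 4 weeks, and Irf1 was above it with 14.3% of its excess left. Ifi27, another interferon-induced gene, did not differ between the weeks beyond counting error, at 39.9, 80.8 and 84.6 CPM (1.05, 0.718 to 1.53). Herc6, an interferon-induced ligase gene, stood at 43.2, 107 and 72.5 CPM, with 45.8% of its excess left.

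Of 46 interferon-induced genes measured in Müller-like nuclei 42 were lower and 22 at least 2-fold, with a median log2 ratio of -0.90. The median excess left over 17 genes was 3.09%. It was 25.9% over 19 genes when, for each gene, the nucleus holding most of its UMIs was left out of each library, so this median rested on single nuclei. Over the 17 genes the share left ran from -29.2% to 109%. The genes were chosen for a high 2-week value, so these medians do not show a return by themselves.

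**Figure D3:**
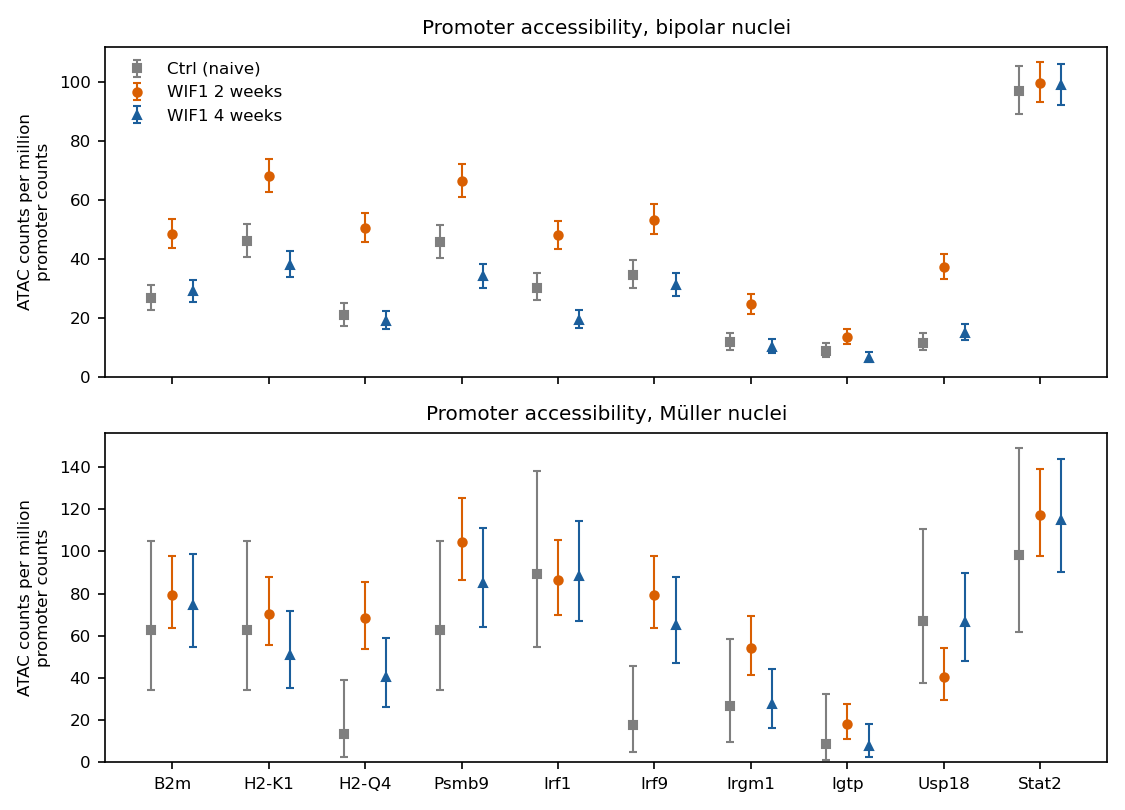
Open chromatin at 10 promoters in bipolar-like (top) and Müller-like nuclei (bottom), in CPM of promoter counts, for the control (squares), 2-week (circles) and 4-week (triangles) libraries with 95% counting intervals. In bipolar-like nuclei B2m and Irf1 are higher at 2 weeks than in both other libraries, while Stat2 stands at 97.1, 99.9 and 99.1 CPM.

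Chromatin over interferon-related promoters was compared by the ATAC counts in peaks within 1000 bp of the gene start, as CPM of all promoter counts of the class. In bipolar-like nuclei the B2m promoter held 26.7, 48.5 and 29.0 CPM in the control, 2-week and 4-week libraries (ratio of 4 to 2 weeks 0.598, 0.507 to 0.705). The promoter of Irf1, with the GAS letters shown above, held 30.3, 48.1 and 19.3 CPM (0.402), that of Irgm1 11.8, 24.5 and 10.2 CPM (0.415), and that of Igtp 8.83, 13.6 and 6.49 CPM (0.478). These promoters were less open at 4 weeks, at levels near or under the control.

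Not all promoters with these letters differed. The Stat2 promoter, also with ISRE letters, held 97.1, 99.9 and 99.1 CPM (0.992, 0.899 to 1.09). The promoter of Usp18, a brake on interferon signalling, held 11.6, 37.3 and 14.9 CPM (0.399), and that of H2-Q4 held 20.9, 50.5 and 19.1 CPM (0.378). The peak shared by Psmb9 and the peptide transporter gene Tap1 held 45.7, 66.6 and 34.1 CPM (0.512). Peaks were called in each library apart, and the Irgm1 peaks were 0.530 times as long at 4 as at 2 weeks.

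Over the lists in bipolar-like nuclei, 8 of 8 MHC class I promoters were lower and 5 passed 1.5-fold, with a median log2 ratio of -0.79, and 29 of 33 interferon-induced promoters were lower and 19 passed 1.5-fold, with a median of -0.67. Over all 15893 promoters 7.32% were at least 1.5-fold lower and 1.81% at least 1.5-fold higher. Low promoters passed more often: among those of 20 to 50 CPM 6.57% were past 1.5-fold lower, against 4 of the 4 MHC class I promoters in that range. Of the others 0 of 2 passed at 10 to 20 CPM, where 20% of all promoters did, and 1 of 2 at 50 to 100 CPM, where 1.01% did. Of the 19 interferon-induced promoters that passed, 8 lay under 10 CPM, where 31.1% of all promoters did, and 5 at 10 to 20 CPM. The split of 288 promoters higher and 1164 lower was 436 and 936 when scaled to all ATAC counts, and 180 and 1624 per 1000 nuclei.

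Cone-like nuclei showed the same order, with B2m promoter values of 15, 29.6 and 10.9 CPM (ratio 0.367), Irf1 at 7.49, 28.7 and 5.98 CPM (0.209) and the Psmb9 peak at 28.1, 63.7 and 19.6 CPM (0.307). Of 6 MHC class I promoters in cones 6 were lower and 2 past 1.5-fold, with a median log2 ratio of -0.52, and of 16 interferon-induced promoters 11 were lower and 4 past 1.5-fold, with a median of -0.31. The background in cones was 6.19% of 12824 promoters at least 1.5-fold lower and 3.63% higher. In rod-like nuclei B2m was barely open, at 4.61, 4.01 and 2.78 CPM, and of 7 class I promoters 4 were lower and 3 higher, 0 past 1.5-fold lower, with a median of -0.09. Irgm1, in contrast, held 6.39, 17.4 and 3.35 CPM in rods (0.193) and Usp18 6.03, 17.7 and 6.06 CPM (0.342). Over all nuclei 8 of 9 MHC class I promoters were past 1.5-fold lower (background 6.09% of 16724, with 2.24% higher), and in amacrine-like nuclei 4 of 8 (12.4% of 12518, with 7.1% higher). In endothelial-like nuclei 2 of 4 passed (12.6% of 8722, with 13% higher). Of 27 interferon-induced promoters in rods 17 were lower and 10 past 1.5-fold (background 4.56% of 15381, with 6.94% higher).

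In Müller-like nuclei single promoters were read with wide intervals. Their B2m promoter held 62.5, 79.3 and 74.4 CPM (ratio of 4 to 2 weeks 0.938, 0.646 to 1.35), Irf1 89.3, 86.5 and 88.3 CPM (1.02) and the Psmb9 peak 62.5, 104 and 85.2 CPM (0.815), while RNA of B2m and Irf1 was 0.321 and 0.276 times the 2-week level. Irf9, the DNA-binding partner of Stat2, held 17.9, 79.3 and 65.1 CPM at its promoter in Müller-like nuclei (0.821), and 34.6, 53.4 and 31.0 CPM in bipolar-like nuclei (0.582). Of 28 interferon-induced promoters in Müller-like nuclei 15 were higher and 13 lower, with a median log2 ratio of 0.02, and of 9 MHC class I promoters 8 were lower and 3 past 1.5-fold, with a median of -0.46, where 11.2% of 12089 promoters were at least 1.5-fold lower and 6.49% higher. Those counts were 785 higher and 1356 lower, and became 1852 and 814 when scaled to all ATAC counts, and 96 and 4401 per 1000 nuclei, so directions for single Müller promoters depend on the scale. The 79 control nuclei of this class give wide counting intervals. The difference between the classes was not tested.

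**Figure D4:**
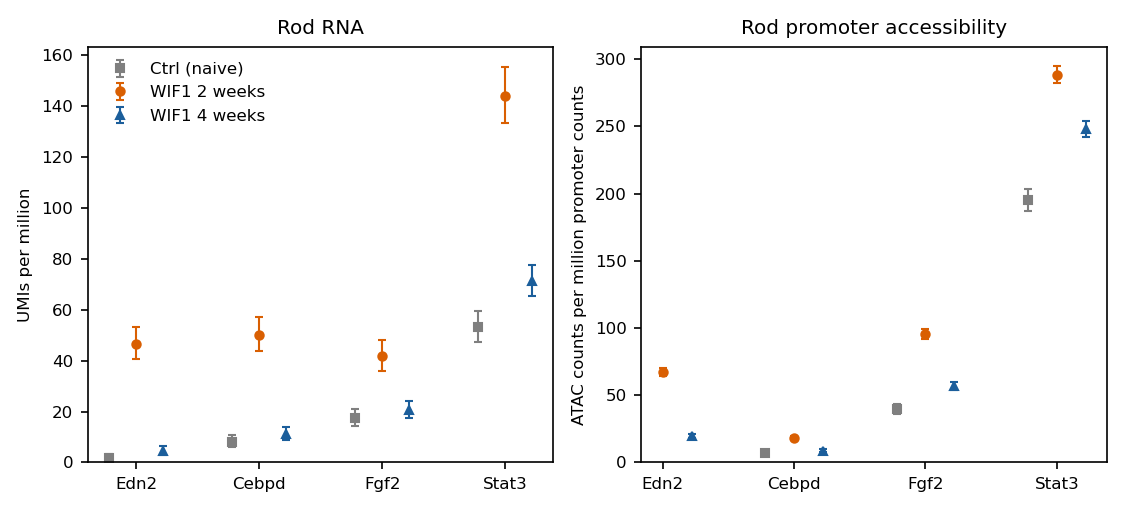
RNA (CPM) and promoter chromatin (ATAC CPM) of injury-related genes in rod-like nuclei in the control, 2-week and 4-week libraries, with 95% counting intervals. Edn2 RNA is at 1.88, 46.6 and 4.47 CPM, and its promoter goes from 67.0 to 19.5 ATAC CPM between 2 and 4 weeks.

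Rod-like nuclei had a set of injury genes that was high at 2 weeks and mostly near the control at 4 weeks. Edn2 (ENSMUSG00000028635), which encodes the vasoactive peptide endothelin 2, gave 11 UMIs (control), 212 UMIs (2 weeks) and 33 UMIs (4 weeks). As CPM these are 1.88, 46.6 and 4.47, a ratio of 4 to 2 weeks of 0.0958 (0.0643 to 0.139), with 5.77% of the excess left. At most 6 Edn2 UMIs were found in bipolar-like and 1 in Müller-like nuclei of any library, counts looked up after the rod values were seen.

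The chromatin over its promoter had the same order. The Edn2 promoter peak in rod-like nuclei held 1857 counts at 2 weeks and 547 at 4 weeks, or 67.0 and 19.5 CPM (0.291, 0.264 to 0.320), and no peak was called there in the control. The same peak held 6.79 and 2.80 CPM in bipolar-like, 13.2 and 12 CPM in cone-like and 18.0 and 10.8 CPM in Müller-like nuclei.

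Fgf2 stood at 17.5, 41.8 and 20.7 CPM in rod-like nuclei (ratio of 4 to 2 weeks 0.495, 0.398 to 0.616), with promoter values of 39.8, 95.4 and 57.0 CPM (0.598). Fgf2os, annotated on the opposite strand, stood at 14.9, 63.4 and 21.4 CPM (0.338, 0.276 to 0.411), and without stated strand handling reads of the pair may be mixed. Cebpd, an injury-induced transcription factor gene, stood at 8.04, 50.2 and 11.1 CPM (0.221, 0.170 to 0.286), and its promoter at 7.36, 18.1 and 8.55 CPM (0.473). Stat3, which relays signals of the interleukin 6 family, stood at 53.2, 144 and 71.2 CPM (0.494, 0.440 to 0.555), with promoter values of 195, 288 and 248 CPM (0.860).

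Lifr, the receptor gene for leukemia inhibitory factor upstream of Stat3, did not differ beyond counting error between the weeks, at 136, 129 and 132 CPM (1.02, 0.919 to 1.13). Over the photoreceptor injury list, 11 of 14 measured genes were lower in rod-like nuclei at 4 weeks and 7 at least 2-fold, with a median log2 ratio of -1.0. At 2 weeks 7 of the 14 were at least 2-fold over the control, and at 4 weeks 2 were, where 1061 and 296 of all 14566 rod genes measured were. The median excess left over 5 genes was 7.26%. Cluster 1, led by Fgf2os and Edn2 among others, held 1269 nuclei at 2 weeks and 325 at 4 weeks. It was drawn from the same RNA, so its size is no separate support, and Igkc and Jchain were also enriched in it.

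Other rod genes at the ends of the ranking were of mixed kinds. Among the lowest ratios were Igkc (0 UMIs at 4 weeks), Abhd17a, a depalmitoylase gene, with 41.8, 64.7 and 24.8 CPM (0.383), the RNA export factor gene Alyref with 32.5, 64.7 and 25.3 CPM (0.391) and Sbf1 with 57.5, 189 and 65.5 CPM (0.347). Gnb3, a G protein subunit gene of cone and ON bipolar signalling, stood at 82.7, 320 and 122 CPM in rod-like nuclei (0.382). Among the highest were the histone gene Hist3h2a with 292, 85.1 and 251 CPM (2.95, 2.64 to 3.30), Lars2 with 110, 40.0 and 107 CPM and Syt14 with 131, 77.9 and 163 CPM. In rod-like nuclei 1.69% of 10965 genes with at least 30 UMIs in the higher library were at least 2-fold higher and 2.83% at least 2-fold lower.

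The visual cascade itself differed less. Of 36 genes of rod phototransduction 13 were higher and 23 lower at 4 weeks, 0 of them at least 2-fold, with a median log2 ratio of -0.09. Rorb, a photoreceptor fate factor gene, stood at 687, 683 and 911 CPM (1.33, 1.28 to 1.39). All 13 mitochondrially encoded genes were higher in rod-like nuclei at 4 weeks, with a median log2 ratio of 0.96, but were under the control at both weeks (medians of -2.03 at 2 and -1.07 at 4 weeks). Of 77 nuclear genes of the respiratory chain 71 were lower, 0 at least 2-fold, with a median of -0.44.

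**Figure D5:**
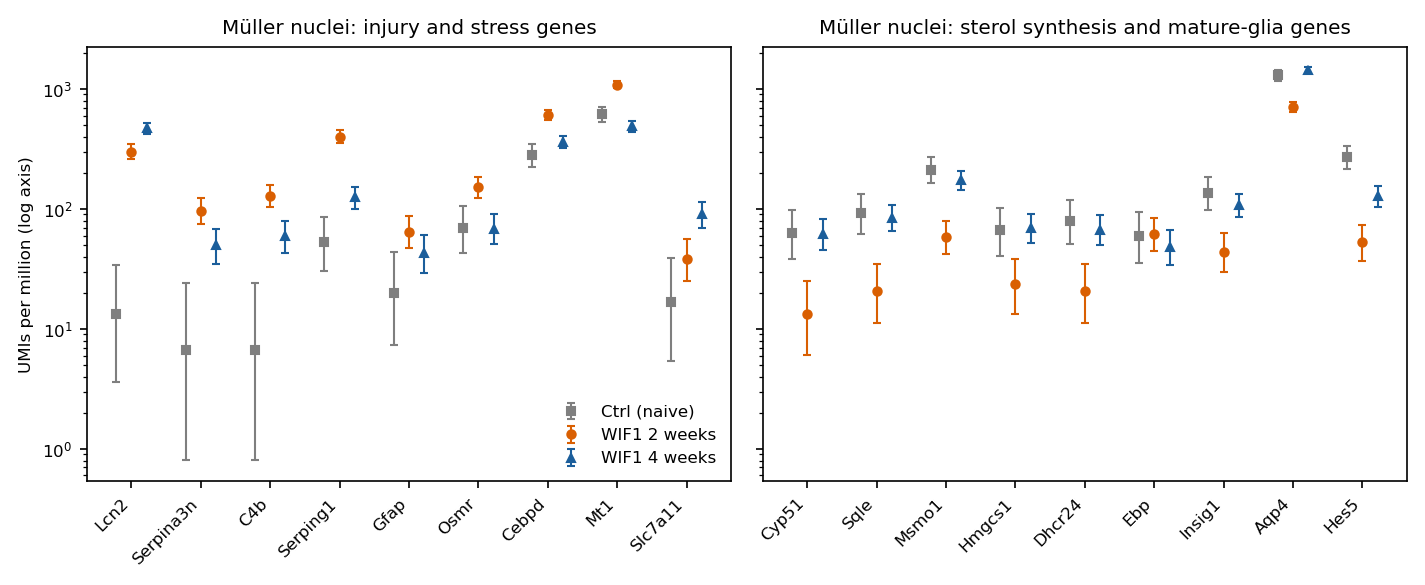
RNA of reactive-glia genes and of sterol synthesis and homeostasis genes in Müller-like nuclei in the control, 2-week and 4-week libraries, in CPM (log axis) with 95% counting intervals. Serping1 is at 401 CPM at 2 weeks and 125 CPM at 4 weeks, and Sqle, at 20.6 CPM at 2 weeks, is at 84.6 CPM at 4 weeks.

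The reactive programme of Müller-like nuclei was in part still present at 4 weeks. Serping1, the C1 inhibitor gene, stood at 53.1, 401 and 125 CPM in the control, 2-week and 4-week libraries (ratio of 4 to 2 weeks 0.311, 0.243 to 0.396), with 20.6% of its excess left. The complement gene C4b stood at 6.64, 129 and 59.1 CPM (0.457, 0.311 to 0.664), with 42.8% left. Clu, an abundant secreted chaperone gene, stood at 5085, 10780 and 5815 CPM (0.539, 0.519 to 0.560), with 12.8% left, and Osmr, the oncostatin M receptor gene, was back at 68.5 CPM beside 69.7 in the control and 151 at 2 weeks.

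Single nuclei carried much of 3 of the best known markers. Gfap, the intermediate filament of reactive glia, stood at 19.9, 64.6 and 43.0 CPM, and at 10.2, 54.7 and 25.7 CPM without the nucleus holding most of its UMIs in each library. Serpina3n, a protease inhibitor gene, stood at 6.64, 96.9 and 49.7 CPM, and at 3.42, 82.8 and 32.5 CPM in that setting. Lcn2, which encodes lipocalin 2, stood at 13.3, 301 and 471 CPM and then at 6.76, 231 and 238 CPM, a ratio of 1.03 (0.829 to 1.29) in place of 1.57 (1.31 to 1.87).

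A single WIF1-4w nucleus held 49.9% of the Lcn2 UMIs of Müller-like nuclei at 4 weeks, 35.1% of Serpina3n, 33.6% of the metallothionein gene Mt2 and 61.2% of Slc7a11, a cystine transporter gene. That nucleus had 6411 UMIs, beside a class median of 3365, and a doublet score of 0.0609 under the limit of 0.138. Its rod-chromatin score was 17.7%. This score scales the share of ATAC counts in rod-enriched peaks, from a low value of other classes up to the rod-like median, set at 100%. Lcn2 was seen in 19 nuclei at 2 weeks and 12 at 4 weeks once the top nucleus was out. With each nucleus named by its highest marker score the Lcn2 ratio of 4 to 2 weeks was 0.509, where that nucleus is named an astrocyte. With and without the top nuclei the Lcn2 level at 4 weeks was above the control, which rests on few UMIs (1 CPM equals 0.301 UMIs there). No control level is given for naming by marker score.

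Over the reactive glia list in Müller-like nuclei, 9 of 21 measured genes were higher and 12 lower at 4 weeks, 1 and 2 of them at least 2-fold, with a median log2 ratio of -0.19. The median excess left over 8 genes was 42.5% (range -1.54% to 317%), and 20.6% over 7 genes without the top nuclei. At 2 weeks 8 of 21 were at least 2-fold over the control and at 4 weeks 5 were, beside 790 and 489 of all 11338 genes. Vim, a filament gene of all Müller glia, stood at 611, 530 and 518 CPM and did not differ between the weeks beyond counting error (0.978, 0.845 to 1.13). Over all nuclei 17 and 13 of 24 list genes were at least 2-fold over the control at 2 and 4 weeks, with median log2 ratios to it of 1.74 and 1.11 (1976 and 620 of all 18863 genes passed), beside the larger share of Müller-like nuclei in both WIF1 libraries.

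Of 4795 Müller genes past the naming limits of UMIs and CPM, 22 were at least 4-fold over the control at 2 weeks. Among these 22, 3 were at a like level at 4 weeks (a ratio between 0.67 and 1.5). They were the metallothionein gene Mt3 with 13.3, 72.0 and 53.7 CPM (0.746, 0.479 to 1.16), the mitotic checkpoint ligase gene Chfr with 9.96, 76.4 and 53.7 CPM (0.703, 0.454 to 1.08) and 2610307P16Rik with 16.6, 83.7 and 60.4 CPM (0.722, 0.477 to 1.09). In the control, 1 CPM of Müller-like nuclei equals 0.301 UMIs, so the control levels of these 3 genes rest on few UMIs. In all nuclei, rod-like, bipolar-like and cone-like nuclei no gene met this rule, with 18, 5, 4 and 5 genes at least 4-fold over the control at 2 weeks. Neat1, a long noncoding RNA that has been tied to stress, was among those not retained, at 33.2, 122 and 24.2 CPM (0.198, 0.112 to 0.333).

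Genes of sterol synthesis were low in Müller-like nuclei at 2 weeks and nearer to the control at 4 weeks. Sqle, the squalene epoxidase gene, stood at 93.0, 20.6 and 84.6 CPM in the control, 2-week and 4-week libraries (ratio of 4 to 2 weeks 4.11, 2.28 to 7.95), and Cyp51, a sterol demethylase gene, at 63.1, 13.2 and 61.8 CPM (4.67, 2.26 to 10.9). Msmo1, which acts later in the pathway, stood at 213, 58.7 and 173 CPM (2.95, 2.05 to 4.32). Hmgcs1, at the entry to the pathway, stood at 66.4, 23.5 and 69.8 CPM (2.97, 1.67 to 5.58). These genes were thus lower than the control at 2 weeks and not far from it at 4 weeks.

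Insig1, a feedback gene of the pathway and itself a target of its regulator, stood at 136, 44.1 and 107 CPM (2.44, 1.58 to 3.84), and the regulator gene Srebf2 at 199, 131 and 189 CPM (1.45, 1.10 to 1.91). Ebp, a sterol isomerase gene, went the other way within counting error, at 59.8, 61.7 and 48.3 CPM (0.784, 0.488 to 1.25). Of 21 measured sterol genes 18 were higher at 4 weeks and 10 at least 2-fold, 3 were lower and 0 at least 2-fold, with a median log2 ratio of 0.68 (0.00 over all Müller genes measured). At 2 weeks 14 of the 21 were at least 2-fold under the control, and at 4 weeks 2 were, where 931 and 703 of all 11338 genes were. By any amount 19 of the 21 were still under the control at 4 weeks, with a median log2 ratio to it of -0.31. Fatty acid genes leaned the same way, with 8 of 9 higher and a median of 0.35, and Scd2, a desaturase gene, stood at 854, 325 and 619 CPM.

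In amacrine-like nuclei 15 of 21 genes were higher with a median log2 ratio of 0.39 and Msmo1 stood at 108, 39.4 and 128 CPM (3.25, 1.97 to 5.52). In bipolar-like nuclei 14 of 23 were higher, with a median of 0.10, in rod-like nuclei 10 of 23, with a median of -0.07, and in cone-like nuclei 8 of 17, with a median of -0.11. At the promoters of 23 sterol genes in Müller-like nuclei the differences were small: 18 were higher and 5 lower, with a median of 0.23. Past 1.5-fold were 2 higher and 2 lower (background 6.49% higher and 11.2% lower of 12089 promoters). Sqle held 214, 122 and 158 ATAC CPM (1.29), Hmgcs1 214, 207 and 240 CPM (1.16) and Cyp51 116, 101 and 122 CPM (1.21). As given above, directions of Müller promoters depend on the scale.

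Markers of resting Müller glia were near evenly split. Of 17 measured genes of Müller homeostasis 10 were higher at 4 weeks, 2 at least 2-fold, and 7 lower, 1 at least 2-fold, with a median log2 ratio of 0.20 (background 5.96% at least 2-fold higher and 6.76% lower). Among the higher ones, Aqp4, the water channel gene, stood at 1299, 709 and 1444 CPM (ratio of 4 to 2 weeks 2.04, 1.83 to 2.27), and Hes5, a Notch target gene, at 269, 52.9 and 128 CPM (2.41, 1.63 to 3.65). Glul, the glutamine synthetase gene, stood at 6360, 5199 and 6924 CPM (1.33, 1.28 to 1.39). Igf2, a growth factor gene and among the highest ratios, stood at 89.7, 25 and 124 CPM (4.95, 2.93 to 8.86).

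At 4 weeks alone, 6 of the 4795 Müller genes past the naming limits were at least 2-fold over both other libraries. By the smaller of their ratios the first 5 were Flrt1 with 29.9, 32.3 and 85.9 CPM (2.66 over 2 weeks, 1.62 to 4.54), Chst9 with 19.9, 27.9 and 64.5 CPM, Ing4 with 26.6, 26.4 and 57.7 CPM, Rffl with 19.9, 29.4 and 63.1 CPM, and Itprid2 with 16.6, 27.9 and 56.4 CPM. Flrt1 encodes a neuronal adhesion protein and Chst9 a sulfotransferase. With 1 CPM of control Müller-like nuclei equal to 0.301 UMIs, the control levels of these genes rest on few UMIs. In Müller-like nuclei 3.05% of 5703 genes were at least 2-fold higher at 4 weeks and 3.1% at least 2-fold lower. In all nuclei, rods, bipolar cells and cones 0 genes met the rule for late genes. Amacrine-like nuclei had 9 of 4487 genes past the naming limits and endothelial-like nuclei 42 of 1226.

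Ccn2, a matricellular gene that responds to YAP signalling, was highest at 4 weeks in Müller-like nuclei, at 146, 198 and 346 CPM (1.75, 1.41 to 2.17). It lies short of the 2-fold limit.

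In bipolar-like nuclei most immediate early genes, which follow activity and stress, were under the control at 4 weeks, few of them by 2-fold. Fos stood at 28.3, 57.9 and 14.1 CPM in the control, 2-week and 4-week libraries (ratio of 4 to 2 weeks 0.244, 0.187 to 0.317), Egr1 at 20.6, 47.3 and 8.42 CPM (0.178, 0.126 to 0.246) and Dusp1 at 14.2, 30.5 and 11.6 CPM (0.382, 0.278 to 0.521). Btg2 went the other way, at 176, 121 and 162 CPM (1.34, 1.19 to 1.5). Of 13 such genes 12 were lower at 4 than at 2 weeks, 8 at least 2-fold, with a median log2 ratio of -1.06. Against the control 10 of the 13 were under it at 4 weeks and 3 over, with a median log2 ratio of -0.29. At least 2-fold under it were 2, where 306 of all 14829 genes were. Tissue handling can induce these genes, and its part was not tested.

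The ON bipolar signalling cascade was nearer to the control at 4 weeks in the genes that stood out at 2 weeks. Gng13, the G protein gamma subunit of the cascade, stood at 695, 1535 and 762 CPM (0.496, 0.477 to 0.516), with 7.89% of its excess left. Trpm1, its channel gene, stood at 2563, 3635 and 2926 CPM (0.805, 0.787 to 0.823). Of 14 cascade genes 10 were lower and 1 at least 2-fold, with a median of -0.20. Stat3 stood at 84.1, 184 and 82.7 CPM in bipolar-like nuclei (0.451, 0.400 to 0.508) and at 106, 211 and 99.4 CPM in Müller-like nuclei (0.470, 0.350 to 0.626), but differed little in cone-like nuclei, at 89.5, 96.1 and 112 CPM. The highest ratios in bipolar-like nuclei included Cul3, a ubiquitin ligase scaffold gene, with 189, 110 and 247 CPM (2.25, 2.02 to 2.52) and Syt14 with 133, 64.9 and 144 CPM, where 1.42% of 11418 genes were at least 2-fold higher and 1.73% at least 2-fold lower.

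Amacrine-like nuclei are a mixture of many subtypes, and their number was lower at 4 weeks. Ptprm, a receptor phosphatase gene, gave 346, 96 and 2 UMIs in the control, 2-week and 4-week libraries, or 158, 165 and 4.49 CPM (ratio of 4 to 2 weeks 0.0273, 0.00326 to 0.101). Cartpt, a neuropeptide gene of some amacrine cells, stood at 757, 1395 and 222 CPM (0.159, 0.128 to 0.197), and Galntl6 at 347, 117 and 15.7 CPM (0.135, 0.0523 to 0.293). Gad1, the GABA synthesis gene shared by many subtypes, stood at 162, 130 and 96.6 CPM (0.742, 0.498 to 1.09). Sub-clusters 25.1 and 26.1 held 59 and 79 of the 217 nuclei at 2 weeks and 28 and 42 of the 114 at 4 weeks. Sub-cluster 14.10, led by Cartpt, held 11, 4 and 0 nuclei in the control, 2-week and 4-week libraries. Sub-cluster 14.1 held 54, 7 and 1, and 14.6 held 36, 26 and 17. The ratios of Ptprm, Cartpt and Galntl6 were below that of Gad1. The parts of fewer nuclei of a subtype and of less RNA per nucleus were not tested.

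Maf, a transcription factor gene, was highest at 4 weeks in amacrine-like nuclei, at 91.7, 144 and 319 CPM (2.22, 1.68 to 2.94), and was 1 of 9 late genes there. In this class 1.81% of 4526 genes were at least 2-fold higher and 3.89% at least 2-fold lower.

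Endothelial-like nuclei were few and mixed with rod material. Nuclei with a rod-chromatin score over 25%, on the scale given above, were 14.1% of the class in the control library. They were 26.3% in the 2-week and 35.5% in the 4-week library. Beside that, 34 of 36 rod genes were higher at 4 weeks with a median log2 ratio of 0.85. Mak, a photoreceptor kinase gene and 1 of the 42 late genes of the class, had a ratio of 7.64 there and of 0.769 without those nuclei. Sparc, a matrix protein gene, stood at 904, 2356 and 790 CPM (0.335, 0.271 to 0.414), the glucose transporter gene Slc2a1 at 2149, 3282 and 1562 CPM (0.476, 0.405 to 0.558) and Klf2, a flow-responsive factor gene, at 757, 1655 and 910 CPM (0.550, 0.442 to 0.684). These 3 genes were lower at 4 weeks, while the list of the blood-retina barrier and endothelial activation was split, with 7 of 14 higher and 7 lower and a median log2 ratio of 0.01. In this class 11.9% of 1264 genes were at least 2-fold higher and 2.93% at least 2-fold lower. Interferon-induced genes of this class were split, with 21 higher and 22 lower of 43.

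Wnt pathway genes differed little between the weeks. Over all nuclei 11 of 32 measured genes for Wnt ligands, receptors and secreted regulators were higher and 21 lower, 1 and 3 at least 2-fold, with a median log2 ratio of -0.29 (background 2.63% and 9.26%, median -0.13), and 13 of 21 genes for beta-catenin, TCF factors and feedback were lower, 1 at least 2-fold, with a median of -0.15. The feedback target gene Axin2 stood at 10.9, 11.5 and 12.5 CPM (ratio of 4 to 2 weeks 1.08, 0.867 to 1.36) and the antagonist gene Nkd1 at 5.78, 5.84 and 5.27 CPM (0.902, 0.649 to 1.26).

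In Müller-like nuclei 14 of 20 genes of the first list were higher, with a median of 0.26, and 11 of 20 of the second were lower, with a median of -0.04. Ror2, a receptor gene of the branch without beta-catenin, stood at 23.2, 83.7 and 41.6 CPM (0.497, 0.310 to 0.783), and Dvl1, a cytoplasmic relay gene, at 33.2, 74.9 and 29.5 CPM (0.394, 0.228 to 0.662). Both were higher at 2 weeks than in the other libraries. Dkk3, a secreted member of the Dickkopf family, stood at 2255, 1934 and 2290 CPM (1.18, 1.10 to 1.27), and its ratio was 0.929 with nuclei named by marker score.

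Over all nuclei the highest ratios belonged to transcripts that overlap ribosomal RNA repeats. AY036118 stood at 1042, 81.7 and 1051 CPM in the control, 2-week and 4-week libraries (ratio of 4 to 2 weeks 12.9, 12 to 13.7) and Gm42418 at 4106, 321 and 2419 CPM (7.53, 7.29 to 7.79), next to Lars2 with 103, 44.2 and 108 CPM. All 3 were low in the 2-week library, which also had the fewest UMIs per nucleus. Of 15009 genes with at least 30 UMIs in the higher library 1.3% were at least 2-fold higher and 4.88% at least 2-fold lower over all nuclei. The peak lists overlapped unequally as well: 66579 of 103911 peaks at 2 weeks (64.1%) touched a 4-week peak, and 66535 of 75686 at 4 weeks (87.9%) touched a 2-week peak, with median lengths of 880 and 875 bp.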

How the data were processed

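Single-nucleus multiome libraries were analysed from 3 groups, 1 library each. The matrices the authors deposited hold raw counts of UMIs (genes) and ATAC counts (peaks), per the file headers. The submitters' processing notes name Cell Ranger ARC 2.0.1, Seurat 5.0.1, Signac 1.12.0 and the build mm10. Peaks were called in each library apart, so a peak of 1 library has no count in another. Columns of samples that could not be mapped numbered 0.

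Barcodes with at least 500 UMIs and at most 10% mitochondrial UMIs were kept, and the top 0.8% per 1000 kept nuclei by Scrublet score were called doublets and left out (511, 842 and 806 nuclei). For clustering, each nucleus was scaled to 10000 counts on a log scale. With 2000 variable genes, 30 components and 15 neighbours, Leiden clusters at resolution 1.5, and sub-clusters at 0.5, were named when at least 3 markers of a class were enriched at least 3-fold. UMIs were summed per class and library into CPM, counts scaled to the class total. Intervals at 95% are exact Poisson for CPM, conditional binomial for a ratio and exact Clopper-Pearson for a share. These cover counting error only. No p-value was computed, because nuclei of 1 library are not replicates. The ratio and interval code was tested on simulated data. Libraries held 14568384 UMIs at 2 weeks, 19997276 at 4 weeks and 21805441 in the control.

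The genes named were, per class, the 8 highest and 8 lowest ratios where the higher library had 30 UMIs and 50 CPM or more, from which the text gives the more abundant or better known. Left out were mitochondrial and sex-linked genes, rod genes outside rods, and genes with over 20% of their UMIs in 1 nucleus. Late and lasting genes follow the rules given with them, 5 of each at most. List members could be named from 30 UMIs. The comparison and the lists were chosen with earlier results of these data known. Alternatives were doublets kept, at least 1000 UMIs, naming by marker score, other scalings and minimums, and leaving out nuclei of over 25% rod chromatin. Leaving out shared barcodes, or the nucleus with most UMIs of each gene, was added after seeing the data. Promoter sequences are RefSeq's. Python 3.11.15, numpy 2.4.6, scipy 1.17.1, pandas 2.3.3, scanpy 1.11.5, igraph 0.11.9, scikit-learn 1.9.0 and matplotlib 3.10.9 were used. The spatial samples were not analysed here.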

Additional observations from a re-analysis of the deposited data

How the results depend on the processing

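No paired analysis was possible because each group has 1 library and no result comes from a test. Of 331 recomputed main results 283 kept within their limits (a like count, or a value inside its interval or spread), 48 moved, and leaving out shared barcodes moved none. With at least 1000 UMIs per nucleus, share ratios of 4 to 2 weeks were 0.495 (Müller), 0.320 (amacrine), 0.609 (bipolar) and 2.52 (rod). With naming by marker score they were 0.963, 0.869, 1.11 and 1.15, and 0.578 for microglia, and the bipolar ratio among nuclei other than rods was 1.11. Genes at least 2-fold higher and lower numbered 195 and 733 over all nuclei, 185 and 310 in rods, 162 and 198 in bipolar and 174 and 177 in Müller-like nuclei. With 1000 UMIs the higher ones became 474 (all) and 291 (rods), and with score naming 297 (Müller). With at least 100 UMIs per gene the pairs were 72 and 268, 66 and 119, 38 and 59, and 34 and 25. With no minimum they were 491 and 2032, 461 and 1748, 465 and 1003, and 729 and 877. The Müller reactive median was -0.79 with score naming, with 15.1% of the excess left, and 20.6% without the top nuclei, where the interferon list kept 25.9%. The Wnt ligand and receptor median was -0.56 at 1000 UMIs. Promoters lower over all nuclei went from 1019 to 578 when lengths had to differ by under 20%, and with at least 100 counts rod promoters higher were 414, bipolar 140 higher and 641 lower, and Müller 121 higher and 293 lower. Scaled to all ATAC counts they were 436 higher in bipolar and 1852 and 814 in Müller-like nuclei, and per 1000 nuclei 180 and 96 and 4401. Of peaks with at least 100 counts 79.2% at 2 weeks and 89.7% at 4 weeks were shared. Among single genes 4 changed direction: in Müller-like nuclei named by score Lcn2 (0.509), Slc7a11 (0.792) and Dkk3 (0.929), and Mak in endothelial-like nuclei without those of over 25% rod chromatin (0.769). Where no value shows it, the cause was not tested.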
